A study of Mus musculus with 4 samples.

Results

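The B cell identity genes described here are 9 genes by which B lymphocytes are recognised: Cd79a, Cd79b, Ms4a1, Cr2, Fcer2a, Fcmr, Blk, Pax5 and Spib. They were taken by name from the reference gene rows of the deposited tables, where each has 1 row per table, and they are 9 of 54621 gene names. RNA had been sequenced from colorectal tissue of germ-free mice, raised without microbes, that all received the carcinogen azoxymethane and 3 cycles of 1% dextran sodium sulfate, an agent that damages the lining of the colon, and were killed at week 36. The mice were wild type (WT) or Clec7a-/- (KO), which lack the gene of the beta-glucan receptor Dectin-1 in all cells, and each genotype gave 1 library of polyps and 1 of non-polyp tissue nearby. Each library pooled RNA of several mice of 1 genotype. There were thus 4 groups with 1 library each, so that neither an error between replicates nor a p-value can be given and each difference is one between 2 pools. The germ-free WT mice were bought and the germ-free KO mice were born by caesarean section and fostered, so genotype and source cannot be told apart. Germ-free KO mice are described by the study as free of polyps, and "KO polyps" is used here only as the name of the library so labelled. The ages, sexes and strains of the mice are not given in the labels.

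B cells recognise antigen through a membrane immunoglobulin that is held in a complex with the signalling chains Cd79a and Cd79b. Src family kinases such as Blk pass the signal on, and the co-receptor CD21, encoded by Cr2, lowers the threshold where complement is attached to the antigen. Pax5 sets and maintains the B cell programme, and B cells that become plasma cells switch it off. In the gut wall B cells gather in lymphoid follicles, such as the colonic patches and the smaller isolated follicles, while plasma cells that secrete immunoglobulin A lie scattered in the lamina propria. Several of the 9 genes have other sources too: follicular dendritic cells also express Cr2, M cells and plasmacytoid dendritic cells also express Spib, and some T cells that carry a gamma-delta receptor also express Blk.

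The levels are TPM (transcripts per 1e+06 transcripts), which are scaled to transcript length and library size, so that genes can be set side by side. Log2 ratios are of TPM + 1, and "higher" or "lower" is called past a log2 ratio of 1 or -1, the threshold of the study's methods. The tables give levels without read counts, so no counting interval can be printed. The mean read depth per base is given for 3 libraries and is unknown for KO non-polyp tissue. Clec7a stood at 0.102 TPM in KO polyps, 31.2 in WT polyps, and 5.97 and 0.0766 in the non-polyp tissue of WT and KO mice, low in both KO libraries. Epithelial genes such as Epcam and Krt20 were abundant in all 4 libraries, and the 11 genes of the epithelial list summed to between 11647 and 13926 TPM. The KO polyp library stood apart from the other 3 in many B cell and general leukocyte genes, but not in all immune genes. Igha, for instance, stood at 1822 TPM there and at 2829 in KO non-polyp tissue.

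All 9 genes were called higher in KO polyps than in WT polyps, where 5.06% of all gene names were, and their level was higher there than in any other library. The summed level of the 9 was 1445 TPM in KO polyps, against 70.3 TPM in WT non-polyp tissue, 51.2 TPM in KO non-polyp tissue and 38.6 TPM in WT polyps. In bulk tissue a higher level can come from more cells of a type or from more RNA per cell, and these cannot be told apart. The other 3 libraries lay close to each other by comparison: within a gene, the highest of these 3 levels was between 1.34 (Cd79b) and 3.28 (Ms4a1) times the lowest. In 8 of the 9 genes the order from high to low was KO polyps, WT non-polyp tissue, KO non-polyp tissue and WT polyps, and in Blk the last 2 changed places. With 1 library per group, it cannot be said which neighbours in this order among the 3 lower libraries differ beyond their error.

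**Figure D1:**
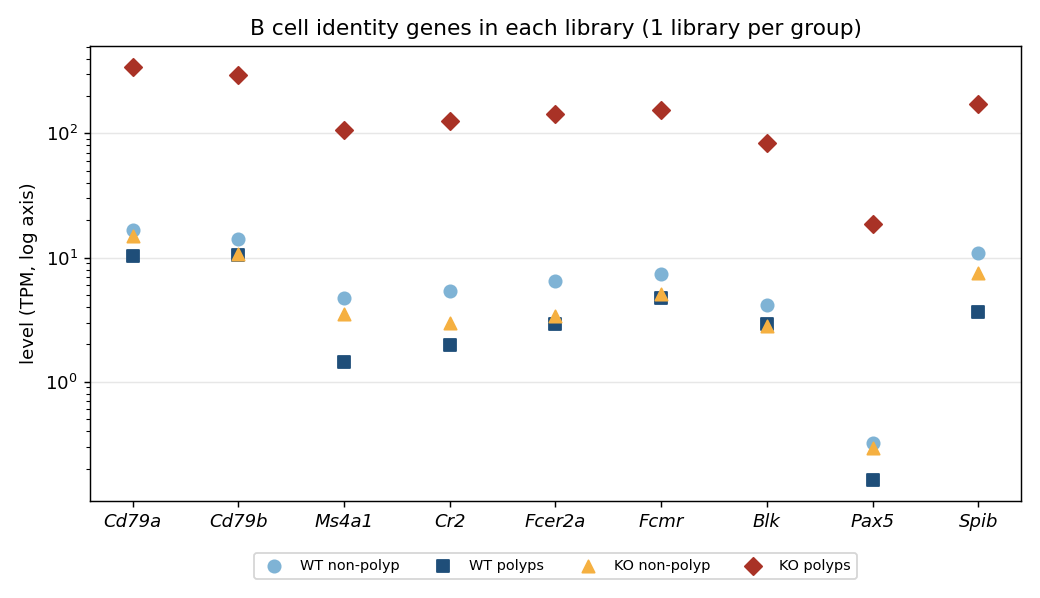
Level of each of the 9 B cell identity genes (horizontal axis) in TPM on a log axis, with 1 point for each of the 4 libraries and no error bars, since each group has 1 library. The KO polyp library lies above the other 3 for every gene, from 18.6 TPM for Pax5 to 345 TPM for Cd79a.

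The chains of the antigen receptor complex were the most abundant of the 9. Cd79a (ENSMUSG00000003379, chromosome 7, 24897381 to 24902197, plus strand of GRCm38) stood at 345 TPM in KO polyps, 10.2 in WT polyps, and 16.8 and 14.9 in the non-polyp tissue of WT and KO mice. Its partner Cd79b (ENSMUSG00000040592, chromosome 11, 106311341 to 106314762, minus strand) stood at 296, 10.6, 14.1 and 10.7 TPM in the same order. KO polyps were high for both and the other 3 libraries were low, with a log2 ratio against WT polyps of 4.95 for Cd79a and 4.68 for Cd79b. The products of the 2 genes form a pair in the receptor, and the ratio of the Cd79a to the Cd79b level stayed between 0.967 (WT polyps) and 1.39 (KO non-polyp tissue), and was 1.17 in KO polyps.

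Ms4a1 encodes CD20, a surface protein of B cells from the late precursor stage until they become plasma cells. Ms4a1 (ENSMUSG00000024673, chromosome 19, 11249675 to 11266241, minus strand) stood at 106.5 TPM in KO polyps, 1.44 in WT polyps, and 4.71 and 3.50 in the non-polyp tissue of WT and KO mice. KO polyps were thus 74.2 times WT polyps in TPM, with a log2 ratio of 5.46, the highest of the 9. The gene lies inside an antisense gene of the annotation, 4930526L06Rik, and it is not stated whether the counting used strand, so that reads of the 2 cannot be told apart. The antisense gene itself was listed at 0 in WT non-polyp tissue and KO polyps and at 0.395 TPM at most, in WT polyps.

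Cr2 encodes the complement receptors CD21 and CD35, which are carried by mature B cells and follicular dendritic cells. Cr2 (ENSMUSG00000026616, chromosome 1, 195136811 to 195176716, minus strand) stood at 125 TPM in KO polyps, 1.96 in WT polyps, and 5.33 and 3.00 in the non-polyp tissue of WT and KO mice, and the log2 ratio in KO against WT polyps was 5.41. Fcer2a encodes CD23, a low-affinity receptor for immunoglobulin E on mature follicular B cells. Fcer2a (ENSMUSG00000005540, chromosome 8, 3681737 to 3694175, minus strand) stood at 144, 2.91, 6.50 and 3.37 TPM in the same order, and the log2 ratio was 5.22. For both genes WT polyps were the lowest library, and the step between WT and KO non-polyp tissue, 0.562 and 0.518 times the WT level, was the largest fall among the 9 in that tissue.

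Fcmr encodes a receptor that binds immunoglobulin M. Fcmr (ENSMUSG00000042474, chromosome 1, 130865669 to 130880791, plus strand) stood at 153 TPM in KO polyps, 4.72 in WT polyps, and 7.42 and 5.07 in the non-polyp tissue of WT and KO mice. Its log2 ratio in KO against WT polyps was 4.75. Blk encodes a kinase of the Src family that acts below the antigen receptor. Blk (ENSMUSG00000014453, chromosome 14, 63372836 to 63417037, minus strand) stood at 83.2, 2.93, 4.17 and 2.83 TPM in the same order, with a log2 ratio of 4.42. The KO polyp library was high for both and the highest of the other 3 was 1.57 times the lowest for Fcmr and 1.47 times for Blk.

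Pax5 and Spib are the transcription factors of the group. Pax5 (ENSMUSG00000014030, chromosome 4, 44524757 to 44710487, minus strand) stood at 18.6 TPM in KO polyps, 0.162 in WT polyps, and 0.321 and 0.292 in the non-polyp tissue of WT and KO mice, and was the least abundant of the 9 in every library. Its TPM in KO polyps was 115 times that of WT polyps, the highest fold of the 9, but its log2 ratio of TPM + 1 was the smallest, 4.08, because the added 1 TPM outweighs its level in WT polyps. The WT polyp value rests on a mean read depth of 0.203 per base, against 9.41 in KO polyps. Spib encodes Spi-B, an ETS family factor of B cells, M cells and plasmacytoid dendritic cells. Spib (ENSMUSG00000008193, chromosome 7, 44525993 to 44532071, minus strand) stood at 173, 3.67, 10.9 and 7.50 TPM in the same order, with a log2 ratio of 5.22.

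The start regions of 5 of the genes are shown because the 9 were high in the same library and because the windows of these 5 held letters that factors of the ETS and E2A families are known to bind, which the window of Pax5 did not. Promoter windows of RefSeq (GRCm38.p6), from 250 bases before to 50 bases after a gene start, were matched by symbol for 6 of the 9 genes (Cd79a, Cr2, Fcer2a with 3 starts, Fcmr, Pax5 and Spib), which gave 8 windows. Each line runs 5′ to 3′ on the gene's strand and ends before the first base of the gene in RefSeq or GENCODE, whichever lies further upstream, and capitals mark matches on either strand to GAGGAA (the type bound by PU.1 and Spi-B), GGAAGT (ETS family) and CAGNTG (the E-box bound by E2A). The windows are chr7:24897247-24897380 (plus strand) for Cd79a, chr1:195176720-195176969 (minus) for Cr2, chr8:3694176-3694424 (minus) for Fcer2a, chr1:130865527-130865668 (plus) for Fcmr and chr7:44532072-44532321 (minus) for Spib.
Cd79a: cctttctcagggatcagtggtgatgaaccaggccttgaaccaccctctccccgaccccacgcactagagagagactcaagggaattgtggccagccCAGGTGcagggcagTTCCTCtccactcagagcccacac
Cr2: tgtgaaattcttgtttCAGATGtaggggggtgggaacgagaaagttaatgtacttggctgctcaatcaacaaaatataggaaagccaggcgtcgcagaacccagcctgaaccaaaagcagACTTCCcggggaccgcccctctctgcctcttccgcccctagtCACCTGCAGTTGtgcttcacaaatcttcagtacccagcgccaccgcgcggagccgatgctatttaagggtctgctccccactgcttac
Fcer2a: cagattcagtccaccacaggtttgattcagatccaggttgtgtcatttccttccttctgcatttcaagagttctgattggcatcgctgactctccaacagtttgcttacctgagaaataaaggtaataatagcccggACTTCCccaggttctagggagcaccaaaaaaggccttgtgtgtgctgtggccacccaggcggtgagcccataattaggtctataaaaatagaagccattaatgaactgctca
Fcmr: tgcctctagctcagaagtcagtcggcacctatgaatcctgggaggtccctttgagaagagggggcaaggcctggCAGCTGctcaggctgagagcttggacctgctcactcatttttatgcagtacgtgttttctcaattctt
Spib: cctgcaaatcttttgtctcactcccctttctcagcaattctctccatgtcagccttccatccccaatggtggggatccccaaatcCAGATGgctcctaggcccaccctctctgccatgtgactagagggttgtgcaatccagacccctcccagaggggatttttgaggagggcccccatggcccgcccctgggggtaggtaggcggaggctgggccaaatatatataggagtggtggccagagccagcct

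GAGGAA was found in 2 of the 8 member windows (Cd79a and, after the stretch shown, Fcmr) and in 28.3% of all 32851 windows. GGAAGT was found in 3 of 8 (Cd79a, where the match lies after the stretch shown, Cr2 and Fcer2a) and in 23.8% of all. CAGNTG was found in 6 of 8 and in 51.4% of all. GAGGAA and GGAAGT share the core GGAA and can overlap. A match describes letters in these windows only, and binding was not measured.

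In KO against WT polyps, 9 of 9 genes were called higher and 0 lower. Of all 54621 gene names 5.06% were higher and 4.29% lower, and of the 17477 names at a mean of 1 TPM or more 14.0% were higher and 11.2% lower. Pax5 reached that mean only through KO polyps. The log2 ratios ran from 4.08 (Pax5) to 5.46 (Ms4a1) with a median of 4.95, beside a median of -0.05 over the 17477 names, and they ranked between 29 and 162 among these names. The ratios of the 9 spread over 1.38 log2 units (SD over genes 0.47), and the genes were not independent of one another since all were read in the same pools.

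**Figure D2:**
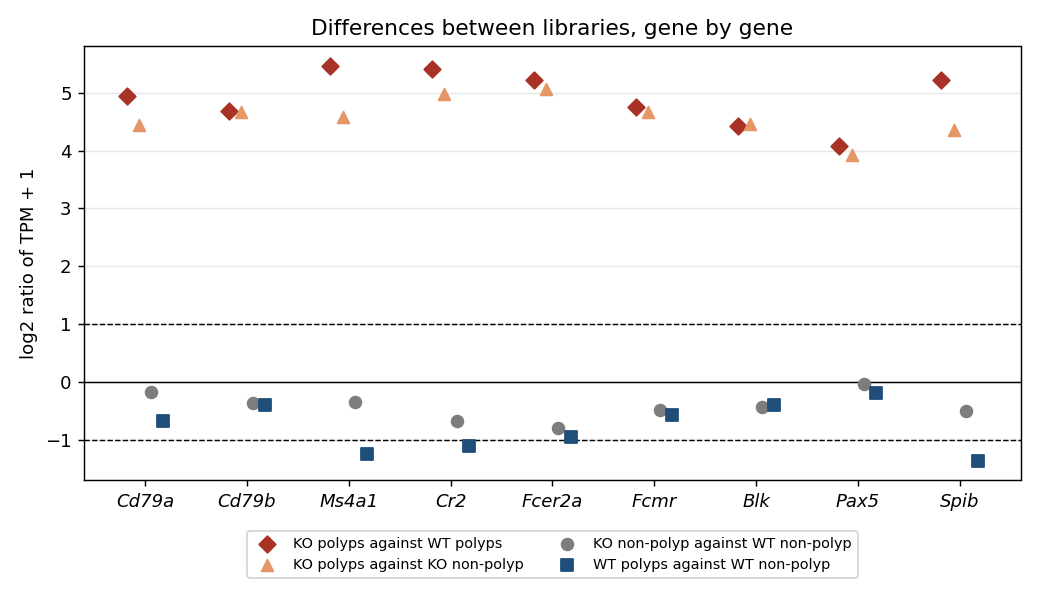
Log2 ratio of TPM + 1 for each of the 9 genes (horizontal axis) in 4 comparisons, each point being 1 library against 1 library, with dashed lines at the threshold of 1 in either direction. Both comparisons that hold KO polyps lie between 3.93 and 5.46, and the other 2 lie between -1.35 and -0.03.

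In KO against WT non-polyp tissue, 0 of the 9 genes were called in either direction, where 0.760% of 54595 names were higher and 0.636% lower (1.86% and 1.58% of those at a mean of 1 TPM or more). All 9 log2 ratios were below 0, from -0.78 (Fcer2a) to -0.03 (Pax5), with a median of -0.43 beside 0.02 over the names at a mean of 1 TPM or more. Cd79a moved least among the more abundant genes, from 16.8 to 14.9 TPM. The KO/WT log2 ratio was therefore larger in polyps than in non-polyp tissue for each of the 9, by between 4.11 (Pax5) and 6.07 (Cr2) and by 5.23 at the median. With 1 library per group this difference between tissues has no error and was not tested, and both of its ratios rest on 1 pool per arm.

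WT polyps held less of all 9 transcripts than WT non-polyp tissue. Spib fell from 10.9 to 3.67 TPM, Ms4a1 from 4.71 to 1.44 and Cr2 from 5.33 to 1.96, with log2 ratios of -1.35, -1.23 and -1.10. These 3 were called lower, where 3.67% of all names and 10.7% of those at a mean of 1 TPM or more were. Fcer2a, with -0.94, did not pass the threshold, and the other 5 ranged from -0.67 (Cd79a) to -0.19 (Pax5). The count depends on the processing: it was 0 with a pseudocount of 5 TPM, 1 on FPKM, and the median over the names at a mean of 1 TPM or more was itself 0.18, a shift that median-of-ratios scaling brought to 0.01. Relative to that shift the median of the 9, -0.67, was -0.85. All 9 smooth muscle genes were also lower in WT polyps than in WT non-polyp tissue, for instance Des at 13.3 against 695 TPM, and the part of tissue make-up in the fall of the B cell genes was not tested.

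In KO polyps against KO non-polyp tissue, 9 of 9 were called higher, where 3.29% of all names and 8.67% of those at a mean of 1 TPM or more were. The log2 ratios ran from 3.93 (Pax5) to 5.06 (Fcer2a) with a median of 4.58, and Fcer2a and Cr2 ranked 3 and 4 among the 17477 names. This comparison shares the KO polyp library with the comparison of KO and WT polyps, so the high values of the 9 in both rest on the same pool. Without the KO polyp library no gene of the 9 was above 16.8 TPM.

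The make-up of the group changed less between libraries than its sum. Cd79a took between 23.9% (KO polyps and WT non-polyp tissue) and 29.1% (KO non-polyp tissue) of the summed TPM of the 9 genes. Cd79b took between 20.1% and 27.4%, the highest share being in WT polyps. Ms4a1 had 7.37% of the sum in KO polyps, 6.70% and 6.83% in WT and KO non-polyp tissue and 3.72% in WT polyps. Pax5 was 1.29% of the sum in KO polyps and at most 0.570% elsewhere. Spib, the member with an epithelial source in M cells, was 11.96% in KO polyps, between its 9.51% in WT polyps and 15.5% in WT non-polyp tissue.

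**Figure D3:**
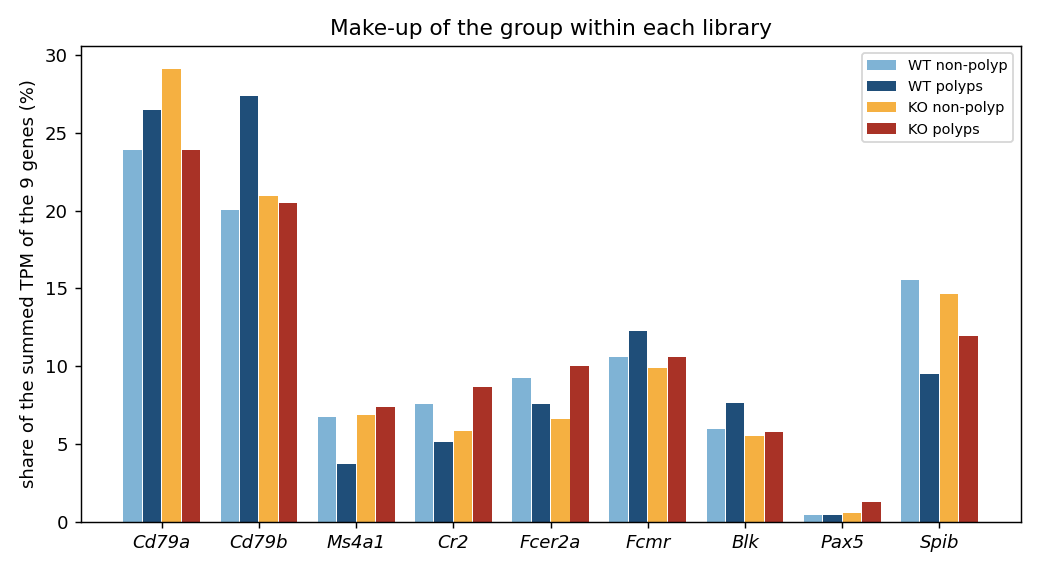
Share of the summed TPM of the 9 genes taken by each gene (vertical axis, %), with 1 bar per library and bars starting at 0. The KO polyp and WT non-polyp bars lie near each other for Cd79a (23.9% in both) and farthest apart for Spib (11.96% against 15.5%), although the sum itself was 1445 against 70.3 TPM.

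Transcripts of leukocytes in general were also higher in KO polyps, but by less. All 10 genes of that list were higher than in WT polyps, with a median log2 ratio of 2.95, led by Ptprc, the pan-leukocyte marker CD45, at 131 against 6.17 TPM (4.20), the Rac activator Dock2 (4.16), the actin-binding protein Coro1a (3.32) and the surface antigen Cd52 (3.14). Of the 9 B cell genes, 8 had a log2 ratio above every one of these 10. This count depends on the added 1 TPM. By plain TPM fold, Pax5 (115) lay above Dock2 (38.2) and Ptprc (21.2), as did Ms4a1, Cr2, Fcer2a and Spib. Cd79a (33.8), Fcmr (32.5), Blk (28.3) and Cd79b (28.0) lay below Dock2. Set against Ptprc, the B cell genes were 0.75 log2 units higher in KO than in WT polyps at the median, from -0.12 (Pax5) to 1.26 (Ms4a1). Without a pseudocount the direction of Pax5 turned: per TPM of Ptprc its level was 0.142 in KO polyps and 0.0262 in WT polyps. Against KO non-polyp tissue, the levels in KO polyps relative to Ptprc ran from -0.35 (Pax5) to 0.78 (Fcer2a) log2 units. Spib (0.07), Cd79a (0.16) and Ms4a1 (0.30) lay between. Here too Pax5 turned without a pseudocount, with 0.142 in KO polyps and 0.0504 in KO non-polyp tissue per TPM of Ptprc. Ptprc is itself expressed by B cells, so it does not stand for the other leukocytes alone. The Cd79a level per TPM of Ptprc was 2.64 in KO polyps, 1.65 in WT polyps, and 2.15 and 2.58 in the non-polyp tissue of WT and KO mice.

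Genes that act below or beside the antigen receptor were higher in KO polyps in 14 of 20 cases and lower in 0, with a median log2 ratio of 1.57. The largest were Cd22, an inhibitory co-receptor of B cells (132 against 5.13 TPM, 4.44), the adaptor Bank1 (45.0 against 1.93 TPM, 3.97), the kinase Btk (37.2 against 3.71 TPM, 3.02) and the adaptor Lat2 (2.56). These 4 leaders are mainly B cell or blood cell genes. Of the 6 that were not called, some were abundant in all libraries. Bcl10, for example, stood at 80.4 TPM in WT polyps and 85.05 in KO polyps, and Blnk at 99.2 and 118. The part of other cells in the levels of these 20 genes was not tested.

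Of 14 other transcription factors of B cells, 11 were higher in KO polyps and 1 was lower, with a median log2 ratio of 2.01. Ikzf3 (Aiolos) stood at 0.612 TPM in WT polyps and 47.5 in KO polyps (4.91), Ikzf1 (Ikaros) at 0.817 and 38.1 (4.43), Pou2af1, a co-activator of Oct factors, at 2.87 and 78.8 (4.37), and Pou2f2, which encodes Oct-2, at 1.32 and 21.4 (3.27). The 1 called lower was Id3, an inhibitor of E proteins, at 447 TPM in WT polyps and 188 in KO polyps, and Tcf3, the gene of E2A, stood at 135 and 72.3 TPM without passing the threshold. Both are widely expressed outside B cells, and the part of other cells in their levels was not tested.

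Of 19 other surface genes, 17 were higher and 0 lower, with a median of 3.80. They were led by Cxcr5, the receptor that brings B cells into follicles (63.7 against 1.34 TPM, 4.79), H2-Ob, a chain of the class II modifier H2-O (146 against 4.35 TPM, 4.78), and the receptors of the survival factors BAFF and APRIL, Tnfrsf13c (111 against 3.39 TPM, 4.67) and Tnfrsf13b (45.4 against 1.04 TPM, 4.51). The 2 that were not called were Cd24a (678 TPM in WT polyps, 355 in KO polyps) and Cd38 (55.8 and 104 TPM). Epithelium and other cells also express both, and the part of those cells was not tested.

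**Figure D4:**
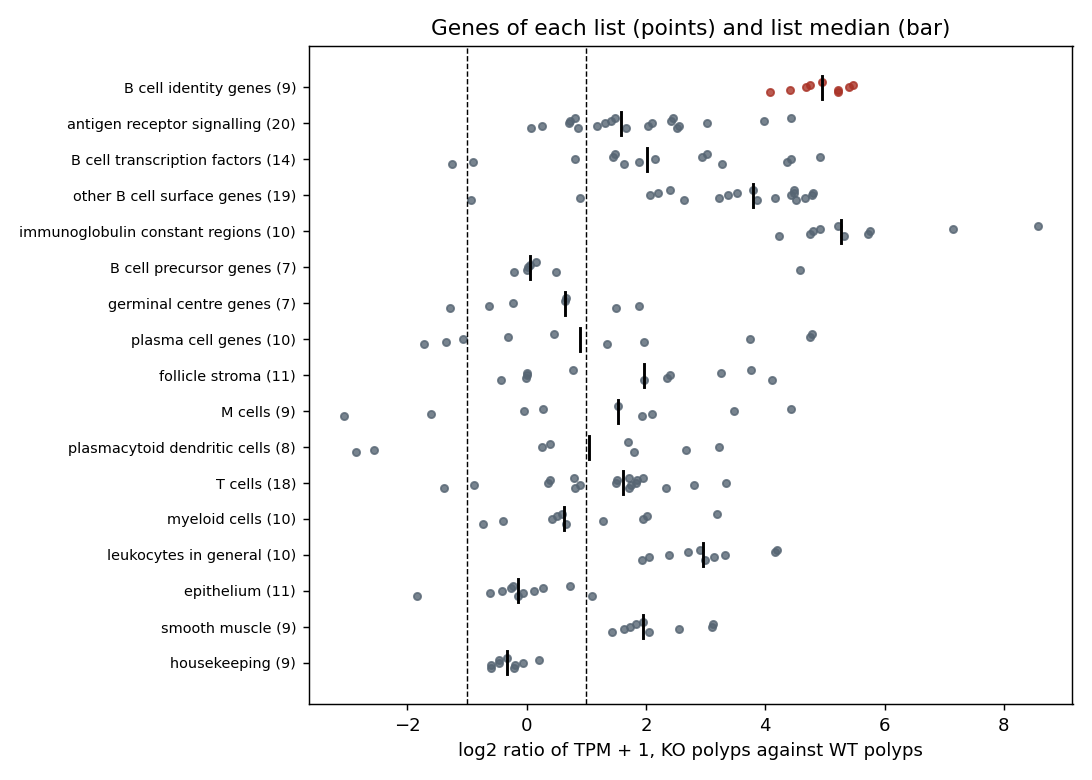
Log2 ratio of TPM + 1 in KO polyps against WT polyps for every gene (points) of the B cell identity group and of 16 lists, with the number of genes in parentheses, the list median as a black bar and dashed lines at the threshold of 1. The 9 B cell genes have a median of 4.95, the immunoglobulin constant regions 5.27, other B cell surface genes 3.80, general leukocyte genes 2.95 and epithelial genes -0.15.

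Genes of other stages of the B lineage did not all follow. Of 7 genes of B cell precursors only Vpreb3 was higher in KO polyps (36.4 against 0.563 TPM, 4.58), a gene that mature B cells also express. The recombinase genes Rag1 and Rag2 and the surrogate light chain gene Igll1 were at 0.120 TPM or less in every library. Of 7 germinal centre genes 2 were higher and 1 lower in KO polyps, with a median of 0.64. Gcsam (3.04 against 0.0975 TPM, 1.88) and Rgs13 (2.41 against 0.206 TPM, 1.501) were higher and Mybl1 was lower (1.22 against 4.44 TPM, -1.29). In WT non-polyp tissue Rgs13 stood at 2.11 TPM, near its level in KO polyps, and Gcsam at 0.827 TPM. Mef2b stood at 0.760 against 0.113 TPM and Nuggc at 0.750 against 0.120 TPM, and the more abundant Bcl6 at 12.9 against 15.2 TPM and S1pr2 at 3.78 against 6.37 TPM, none of which passed the threshold. At such low levels the added 1 TPM weighs on the ratios. By plain TPM fold Gcsam (31.1) lay above Cd79b (28.0), and Rgs13 (11.7), Mef2b (6.72) and Nuggc (6.25) lay below it. The folds of Bcl6 (0.847), S1pr2 (0.593) and Mybl1 (0.275) were lower still.

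Immunoglobulin genes showed another pattern over the 4 libraries. All 10 constant region genes were higher in KO than in WT polyps (median 5.27), led by Ighg2b (978 against 1.58 TPM, 8.57), Ighg3 (152 against 0.0785 TPM, 7.15), Iglc2 (604 against 10.1 TPM, 5.76) and Ighg1 (91.7 against 0.758 TPM, 5.72). In KO against WT non-polyp tissue, where none of the 9 B cell genes was called, 6 of the 10 were higher and 0 lower (median 1.23). Constant regions share sequence with one another, and the split of reads between them is uncertain. Ighd, the constant region of the receptor of resting mature B cells, stood at 381 TPM in KO polyps, 9.27 in WT polyps, and 6.90 and 5.28 in the non-polyp tissue of WT and KO mice. Ighd was thus high in KO polyps alone, as the 9 were. Igha, the constant region of gut plasma cells, stood at 1822 TPM in KO polyps, 96.4 in WT polyps, and 1203 and 2829 in the non-polyp tissue of WT and KO mice, so that it was highest in KO non-polyp tissue.

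Plasma cell genes likewise separated from the B cell genes in non-polyp tissue, where 3 of 10 were higher in KO than in WT mice and 0 lower. In KO against WT polyps, 5 of 10 were higher and 3 lower, with a median of 0.90. There, Jchain (4.78) and Mzb1 (4.76) lay within the range of the 9 B cell genes, from 4.08 to 5.46. Jchain, which joins secreted antibodies, stood at 396 TPM in KO polyps, 13.4 in WT polyps, and 110 and 369 in the non-polyp tissue of WT and KO mice. Relative to Cd79a the Jchain level was 1.15 in KO polyps and 1.32 in WT polyps, but 6.56 in WT and 24.7 in KO non-polyp tissue. Mzb1, a chaperone of antibody-making cells (67.6 against 1.54 TPM, 4.76) and the factor Irf4 (19.5 against 0.533 TPM, 3.74) were higher in KO polyps. Prdm1, the gene of Blimp-1, was lower (2.75 against 11.4 TPM, -1.72), as were Sdc1 and Fkbp11. Epithelium expresses the last 2 genes too, and its part in their levels was not tested.

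Markers of other cell types were read beside Cr2, Spib and Blk. No marker of gamma-delta T cells was on the lists, so that source of Blk was read only through T cell genes in general. Of 11 genes of follicle stroma, 6 were higher in KO polyps and 0 lower, with a median of 1.96. These included Cxcl13, the ligand of Cxcr5 (271 against 14.8 TPM, 4.11), Enpp2, the gene of autotaxin (127 against 8.45 TPM, 3.76), Tnfsf11, which encodes RANKL (22.6 against 1.47 TPM, 3.26) and Mfge8, a product of follicular dendritic cells (964 against 182 TPM, 2.40). Ccl21a was listed at 0 in all 4 libraries and Ccl19 in all but KO non-polyp tissue, at 0.297 TPM there. The summed level of the list was 2863 TPM in KO polyps, 605 in WT polyps, and 391 and 331 in WT and KO non-polyp tissue. The part of follicle stroma in the Cr2 level was not tested.

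Of 9 M cell genes, 5 were higher and 2 lower, with a median of 1.52. Ccl20 (111 against 4.19 TPM, 4.43), the M cell receptor Gp2 (27.4 against 1.55 TPM, 3.47) and the factor Sox8 (6.41 against 0.723 TPM, 2.10) were higher, and Marcksl1 was lower (55.2 against 471 TPM, -3.07). The summed level of the list was 831 TPM in KO polyps, 1838 in WT polyps, and 527 and 466 in WT and KO non-polyp tissue. Pglyrp1, the other gene called lower, alone gave 382, 1168, 299 and 241 TPM of these. In WT polyps, Pglyrp1 and Marcksl1 made up most of the sum. Of 8 plasmacytoid dendritic cell genes, 4 were higher and 2 lower (median 1.04), with Siglech, a defining marker, at 6.60 TPM in KO polyps and 0.191 in WT polyps, Tcf4 and Runx2 lower, and Klk1, a kallikrein gene abundant in these libraries, higher. Their summed level was 1718 TPM in KO polyps, 336 in WT polyps, and 3751 and 2874 in WT and KO non-polyp tissue, of which Klk1 alone gave 1365, 145, 3672 and 2818 TPM. The part of these cells in the Spib level was not tested.

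Of 18 T cell genes, 11 were higher in KO polyps and 1 lower, with a median of 1.62, led by Cd2 (41.5 against 3.19 TPM, 3.35), Cd3e (10.5 against 0.649 TPM, 2.80), Lat (19.6 against 3.08 TPM, 2.33) and Lck (27.1 against 6.24 TPM, 1.96). Their summed level was 229 TPM in KO polyps, 140 in WT polyps, and 40.8 and 33.9 in WT and KO non-polyp tissue. Of 10 myeloid genes 4 were higher and 0 lower (median 0.62), led by Flt3 (13.2 against 0.554 TPM, 3.19), a gene of dendritic cells. On the scale of TPM + 1, the highest T cell ratio, 3.35, lay below the lowest of the 9 B cell genes, 4.08. The log2 ratio of Blk, 4.42, lay above that of each of the 18 T cell genes. By plain TPM fold, Cd28 (38.8, from 0.0735 to 2.85 TPM) lay above Cd79a (33.8), Fcmr (32.5), Blk (28.3) and Cd79b (28.0). The next highest T cell fold was that of Cd3e (16.2). The part of T cells in the Blk level was not tested.

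Epithelial and housekeeping genes moved less, whereas smooth muscle genes were higher in KO polyps. Of 11 epithelial genes 1 was higher (Cdx2, 1.10) and 1 lower (Krt18, -1.84) in KO polyps, with a median of -0.15, and 0 of 9 housekeeping genes were called (median -0.33, Gapdh 45.5 against 57.2 TPM). All 9 smooth muscle genes were higher in KO than in WT polyps (median 1.95, for example Des at 125 against 13.3 TPM), with a summed level of 1771 TPM in KO polyps between 474 TPM in WT polyps and 5731 and 5575 TPM in WT and KO non-polyp tissue. The KO polyp library thus differed from WT polyps in muscle as well as in lymphoid genes, and the part of the muscle or wall layers taken with the tissue in the B cell levels was not tested.

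The genes whose profile over the 4 libraries lay nearest to the mean profile of the 9 were mostly known B cell or class II genes. Likeness was measured as the Euclidean distance between centred log2(TPM + 1) profiles over 4 libraries, among 10665 annotated names that reached 10 TPM in at least 1 library. The nearest was Ikzf3 at a distance of 0.04 log2 units, with H2-Ob (0.23), Cxcr5 (0.25), Cd37, a tetraspanin of lymphocytes (0.32), Chst3 (0.38), Cd22 (0.38), H2-Eb2 (0.38), Fcrla, an Fc receptor-like protein of B cells (0.40), and H2-Oa, the partner chain of H2-Ob (0.43), after it. The 9 themselves lay between 0.18 (Cd79a) and 0.65 (Pax5) from their own mean. Chst3 encodes a chondroitin sulfotransferase and stood at 44.7 TPM in KO polyps, 1.17 in WT polyps, and 2.01 and 1.11 in the non-polyp tissue of WT and KO mice. With 4 libraries of which 1 stands apart, any gene that is high in KO polyps alone comes near this profile.

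**Figure D5:**
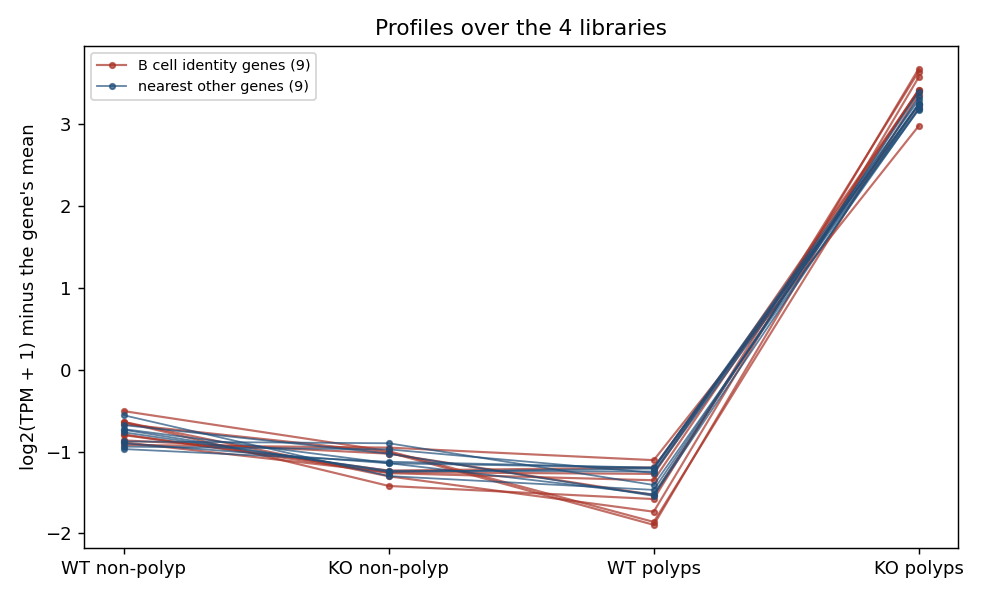
Log2(TPM + 1) minus the gene's own mean (vertical axis) in the 4 libraries (horizontal axis), with 1 line for each of the 9 B cell identity genes (red) and each of the 9 nearest other genes (blue). Each line is low in 3 libraries and high in KO polyps, and the nearest gene, Ikzf3, lay 0.04 from the mean of the red lines.

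The transcripts that the authors' program assembled from the reads give a second view of how well each gene was covered in the 3 libraries whose tables hold them. They come from the same reads and are not independent of the levels above. In KO polyps an assembled locus on the gene's strand ran over the whole gene for 8 of the 9 members. At Cr2 a locus with no strand assigned spanned the gene, but at a mean read depth of 0.481 per base, against 62.9 for the reference gene. In WT non-polyp tissue a locus on the gene's strand ran over the whole gene for 5 of 9, and in WT polyps for 3 of 9 (Cd79a, Cd79b and Fcer2a). WT polyps had no assembled locus on the gene's strand at Ms4a1 or Pax5. Only shorter pieces were assembled at Cr2, Fcmr, Blk and Spib there. At Pax5, WT non-polyp tissue had 1 assembled piece at the 3′ end (chromosome 4, 44524798 to 44537460, 6.82% of the gene's span).

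Assembled loci also ran past annotated ends in KO polyps. The locus at Cd79a continued to position 24926589 of chromosome 7, beyond the annotated end at 24902197, and had 567 TPM against 345 TPM for the reference gene. Its mean read depth per base was lower, 151 against 431. The locus at Spib continued to 44553951 of chromosome 7, past the gene's annotated start at 44532071, with a depth of 45.2 against 197. Whether these loci take in neighbouring genes was not examined. Their levels therefore cannot be read as levels of Cd79a or Spib alone. At Pax5, which has 20 annotated transcripts, the assembled locus had 36.1 TPM and the reference gene 18.6 TPM, so that its level depends on which transcripts are counted. Pax5 overlaps 4 other annotated genes, among them the microRNA gene Mir5120 (1.07 TPM in KO polyps, 0 elsewhere) and the antisense gene Gm12462 (0.0687 TPM in KO polyps), which were low beside it.

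Igha, Ighd, Rag1, Rag2, Igll1, Gcsam, Rgs13, Mybl1, Mef2b, Nuggc, Id3, Tcf3, Cd24a, Cd38, Bcl10, Blnk, Sdc1, Fkbp11, Ccl19, Ccl21a, Pglyrp1, Tcf7, Cd28, Epcam, Krt20, Gapdh, Mir5120, Gm12462 and 4930526L06Rik lie outside the rule by which genes were named and were chosen after their values were seen.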

How the data were processed

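RNA was sequenced from 4 libraries of pooled colorectal tissue. Per the study's methods, trimming was done with Trimmomatic, alignment to the mouse build GRCm38 (mm10) with HISAT2 and assembly with StringTie. Versions, the annotation release and the use of strand are not given in the sources used here, and the labels and the methods name different library kits. The values analysed are the deposited TPM of reference genes. Beside TPM, 3 of the 4 deposited tables carry FPKM and coverage (mean read depth per base), and list assembled loci, which alone sum to 1e+06 TPM, among the reference genes. The table of KO non-polyp tissue instead carries a ratio to the Gapdh level, computed by the authors, which was not used. Reference genes summed to between 860905 and 906199 TPM per library.

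Names that had become dates were restored for 27 genes in each of 3 tables, and TPM was summed over rows of 1 name. Coordinates in the files equal those of GENCODE vM21 for the 9 genes. The log2 ratio of TPM + 1 was taken in 4 comparisons with a threshold of 1. No test was run, since each group has 1 library. The procedure was tested on simulated data, with large changes put into genes at 5 TPM or more. That check does not measure the error between pools.

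The members, the 16 lists (182 genes) and the rule for named genes were chosen with earlier results of these data known. The rule names the 9 members, Clec7a, from each list up to 4 genes with the largest KO/WT difference in polyps at 5 TPM or more, and the 10 nearest profiles at 10 TPM or more, and 2 genes, 1 of them on a list and 1 among the nearest profiles, are not reported here. Of the myeloid, epithelial, smooth muscle and housekeeping lists, which serve as controls, only some of the genes named by the rule are printed. Nearest profiles leave out predicted names and antigen receptor segments. The alternatives were pseudocounts of 0.1 and 5 TPM, 2 rescalings, median-of-ratios and quantile scaling, FPKM, the highest row per name and members at 5 TPM or more. Calculations ran in Python 3.11.15 (pandas 2.3.3, numpy 2.4.6), and plots were drawn with matplotlib 3.10.9.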

Additional observations from a re-analysis of the deposited data

Results flagged for a closer look

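For each of the 9 genes the KO library was above the WT library in polyps and below it in non-polyp tissue. The difference between these 2 log2 ratios was 6.07 for Cr2, 5.998 for Fcer2a, 5.81 for Ms4a1, 5.71 for Spib, 5.23 for Fcmr, 5.11 for Cd79a, 5.05 for Cd79b, 4.85 for Blk and 4.11 for Pax5. With 1 library per group the difference was not tested. The ratios in non-polyp tissue were small, from -0.78 to -0.03, and none passed the threshold.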

How the results depend on the processing

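No paired analysis was possible because each group has 1 library, and for the same reason no replicate could be left out. Under the 9 alternatives (8 for comparisons with KO non-polyp tissue, which has no FPKM), 9 of 9 genes stayed higher in KO polyps than in WT polyps and than in KO non-polyp tissue, and 0 were called in non-polyp tissue. The median log2 ratio ranged from 4.22 to 5.52 in KO against WT polyps, from 3.97 to 4.89 in KO polyps against KO non-polyp tissue and from -0.54 to -0.28 in KO against WT non-polyp tissue, and the difference between tissues from 4.55 to 6.06. Of the 9, 3 were lower in WT polyps than in WT non-polyp tissue as reported, 0 with a pseudocount of 5 TPM and 1 (Spib) on FPKM, whose smaller values weigh less against the added 1. Fcer2a passed the threshold too with a pseudocount of 0.1 TPM (-1.13) and with median-of-ratios (-1.10) or quantile scaling (-1.08). The median relative to Ptprc passed 1 with a pseudocount of 0.1 TPM (1.14, against 0.75). Of 300 single gene values, 292 kept their side of the threshold and 0 changed direction. These values include the highest row per name and members at 5 TPM or more, which could not change any single gene value. Each gene has 1 row per table, and the filter keeps the main ratios. All 9 genes reached 5 TPM in KO polyps, so the filter left out none in comparisons with that library. Quantile normalization moved the median of the 17477 names in KO polyps against KO non-polyp tissue from 0.03 to -0.10. Depth limits the low values most: Pax5 had a mean read depth of 0.417 per base in WT non-polyp tissue and 0.203 in WT polyps, and Ms4a1 and Cr2 had 1.81 and 1.32 in WT polyps, so that their folds are imprecise by an amount that 1 library cannot give.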
